A study of Mus musculus with 2 samples.

Results

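Genes that control apoptosis, together with genes known as targets of the transcription factor p53, were followed in whole uterus on gestational day 4 in a Mettl14 d/d library and a Mettl14 f/f library. Members were chosen by gene symbol: the BCL-2 family, the caspases, the inhibitor of apoptosis (IAP) family, p53 with its regulators Mdm2 and Mdm4, and a set of p53 and stress targets such as Gdf15, the sestrins and the Gadd45 genes. The rule found 62 of 55363 genes, and no measured value entered it. Females aged 6 to 8 weeks had been mated with fertile males, with day 1 set at the vaginal plug. Both libraries thus came from early pregnancy, at the stage when the mouse uterus becomes ready for embryo attachment. Mettl14 encodes a subunit of the complex that writes N6-methyladenosine on RNA. In usual notation d/d marks deleted and f/f floxed alleles; the sources used here do not give the Cre driver, the mouse strain, or whether a library came from 1 animal or a pool. Each genotype has 1 library, so no value below carries a replicate error or a test, and higher and lower compare these libraries.

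Apoptosis is held in check at the mitochondrion by the BCL-2 family. Pro-survival members restrain the effectors that open the outer membrane, and BH3-only members relieve that restraint. Released cytochrome c then assembles Apaf1 and Casp9 into the apoptosome, which activates the executioner caspases, while death receptors reach the same caspases through Casp8. IAP proteins block caspases, and p53 raises the transcription of several BH3-only genes, Bax and arrest genes as well as that of its own inhibitor Mdm2. In the rodent uterus the luminal epithelium is known to undergo apoptosis around the attaching embryo, after the stage studied here.

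The libraries held about 23200000 fragments in d/d and 19850000 fragments in f/f, as read from the steps of low FPKM values (fragments scaled to gene length and to the mapped total of the library, as deposited by the authors). Mettl14 stood at 3.21 FPKM in d/d and 13.6 FPKM in f/f, 4.25-fold lower in d/d. From 1 value per gene the deleted exons cannot be read apart from the rest of Mettl14. A gene was counted where either library had it at 1 FPKM or above, which 16263 genes met. Their log2 ratios (d/d over f/f, taken on FPKM + 1) centred at -0.01, with quartiles at -0.41 and 0.41. A gene counts here as higher or lower when that log2 ratio is at least 1 in size, which is a 2-fold difference on the FPKM + 1 scale.

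More of the counted apoptosis genes lay within 1.5-fold between the libraries than outside it, and a few stood far apart. Of the 62 members 57 reached 1 FPKM, and 55 of these did so in both libraries. By the 2-fold rule 7 were higher in d/d, namely Bcl2l15, Gdf15, Gadd45g, Perp, Bcl2a1b, Bcl2l14 and Bcl2a1d, and 2 were lower, namely Bok and Casp12. The 7 higher members are 12.3% of the 57, where 10.2% of all counted genes were higher; the 2 lower ones are 3.51%, where 8.28% of all genes were lower. Together 9 members, or 15.8%, passed the rule, against 18.4% of all genes, so the share that passed was close to that of the genome at large. The middle of the members lay above 0, with quartiles of their log2 ratios at -0.21 and 0.76 around a median of 0.30, and 38 of the 57 ratios were above 0 (66.7%, against 49.2% of all counted genes). Within 1.5-fold on the same scale lay 32 members. Past 1.5-fold, 31.6% of members were higher and 12.3% lower, against 18.8% and 17.8% of all counted genes. Members ran higher than the average gene in both libraries. Their median level was 27.7 FPKM in d/d and 21.2 FPKM in f/f, against 13.7 and 13.2 FPKM over all counted genes.

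**Figure D1:**
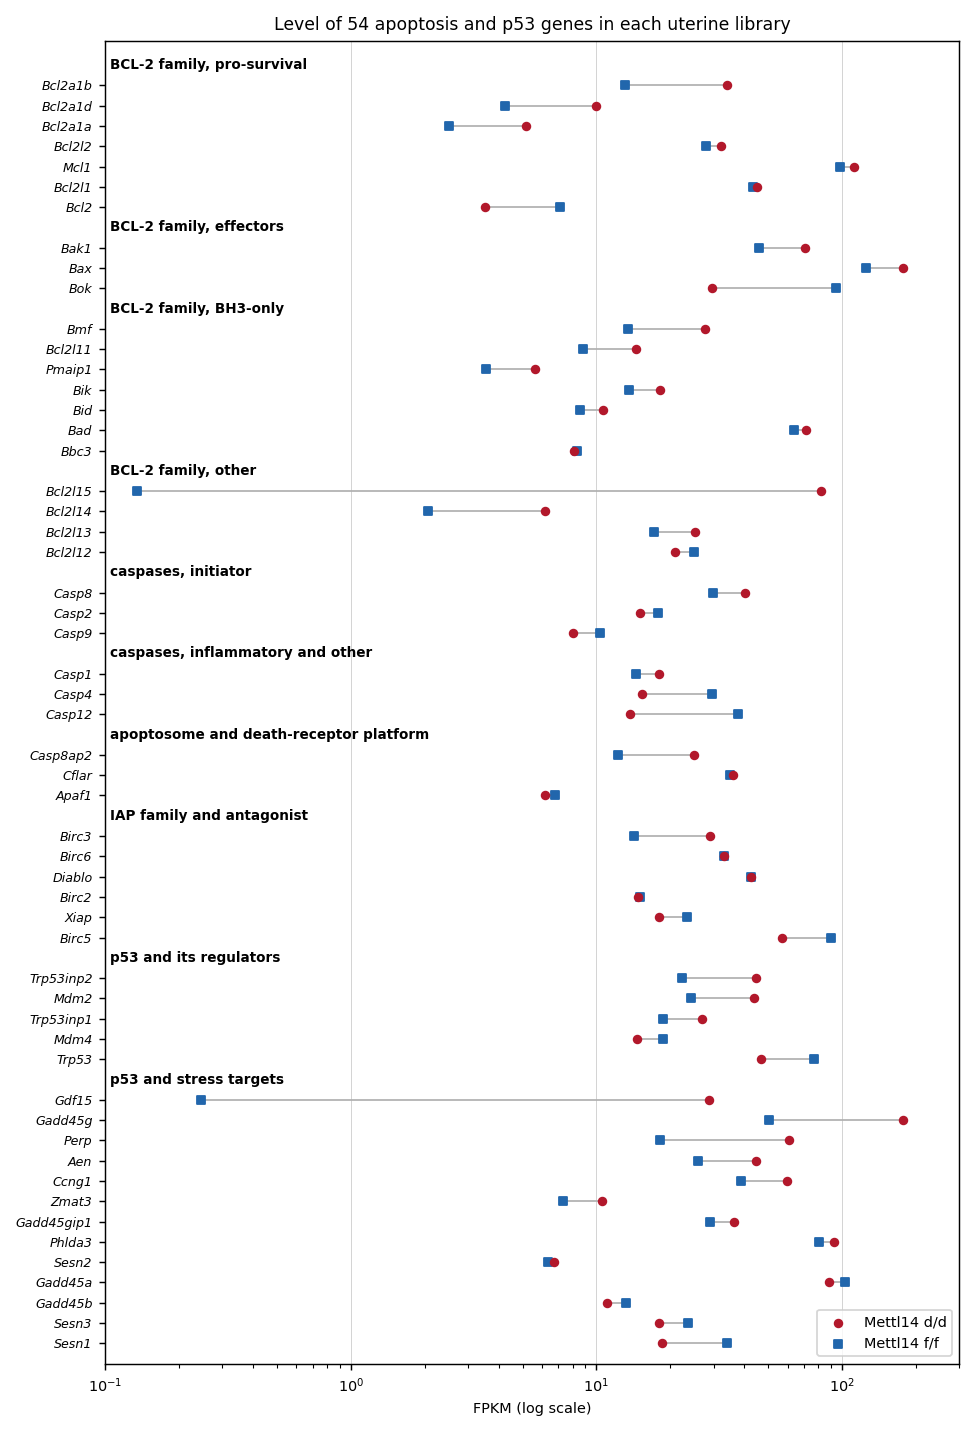
Level in FPKM (log axis) of 54 of the 57 counted apoptosis and p53 genes, with red circles for the d/d library and blue squares for the f/f library, ordered within each role by log2 ratio. Bcl2l15 and Gdf15 have the widest gaps, with f/f values of 0.135 and 0.246 FPKM, and the other pairs lie closer together.

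**Figure D2:**
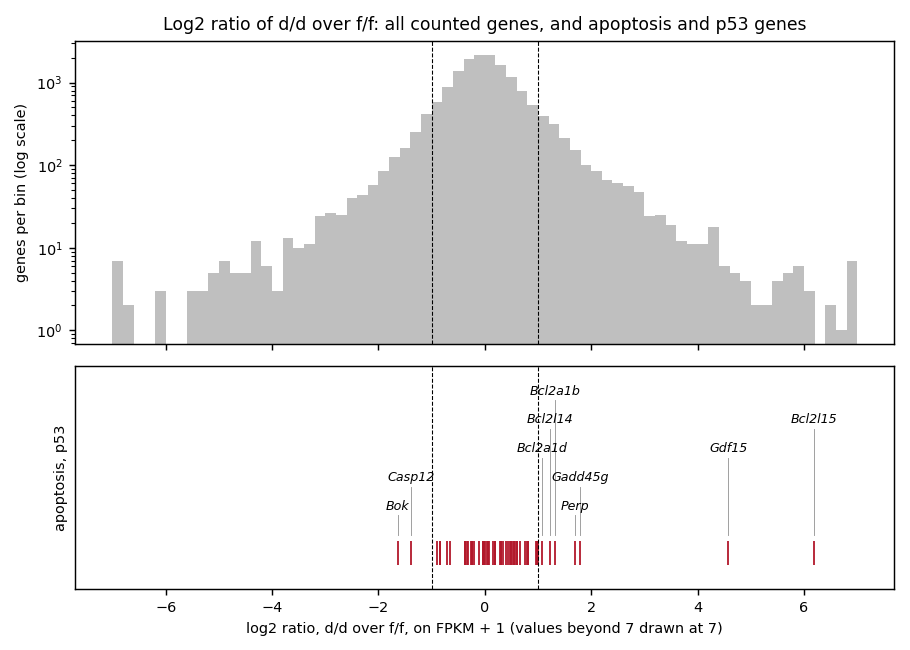
Upper panel: number of genes (log axis) by log2 ratio (d/d over f/f, FPKM + 1) for 16263 genes. Lower panel: the same ratio for the 57 members, with the 9 past the dashed 2-fold lines named; the member ratios run between -1.64 for Bok and 6.19 for Bcl2l15.

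Whole uterus mixes cell types, and fewer cells of a type cannot be told apart from less RNA per cell. The marker lists differed widely between the libraries, where 10.2% of all counted genes were higher and 8.28% lower. All 10 epithelial markers had ratios above 0 and 9 were higher by the 2-fold rule, with a summed level of 2086 FPKM in d/d against 269 FPKM in f/f. All 10 stromal markers had ratios below 0 and 6 were lower, at a summed 2993 FPKM in d/d and 4884 FPKM in f/f, and likewise all 8 endothelial markers, of which 4 were lower, at 185 and 381 FPKM. Of 8 smooth muscle markers 2 were lower (summed 3238 FPKM in d/d and 4938 FPKM in f/f), abundant in both as in a muscular uterus. Among leukocytes, 4 of 8 macrophage markers were higher (summed 1506 and 643 FPKM in d/d and f/f), whereas 6 of the 9 counted NK and T cell markers were lower and 3 higher (52.9 and 197 FPKM). For neutrophils, 2 of 6 counted markers were higher at a summed 182 and 117 FPKM, with Elane listed at 0 in both libraries and Ly6g at 0 in f/f. Of 7 gland markers 4 were lower, at 26.4 FPKM in d/d against 2271 FPKM in f/f, and Prss28 and Spink1 were listed at 0 in d/d. The 5 counted B and plasma cell markers had ratios above 0, 4 of them past the rule (3609 and 1346 FPKM). All 4 counted fat cell markers were higher (109 and 2.96 FPKM), with Plin1, Retn and Lep listed at 0 in f/f. The part of any of these lists in the results that follow was not tested.

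The p53 gene itself and its inhibitor ran in opposite directions without either passing the 2-fold rule. Trp53, which encodes p53 (chr11:69580359-69591873 on GRCm38, plus strand), stood at 46.7 FPKM in d/d and 76.6 FPKM in f/f, a log2 ratio of -0.70. Mdm2, the ubiquitin ligase that marks p53 for destruction and is itself a p53 target, stood at 43.6 FPKM in d/d and 24.2 FPKM in f/f, a log2 ratio of 0.82. The level of Mdm2 relative to Trp53 was thus 0.933 in d/d and 0.316 in f/f. The Mdm2 relative that masks the p53 activation domain, Mdm4, stood at 14.6 FPKM in d/d and 18.6 FPKM in f/f (-0.34). Of the p53-induced nuclear proteins, which act in transcription and in autophagy, Trp53inp2 stood at 44.6 FPKM in d/d and 22.3 FPKM in f/f (0.97), just short of the rule, and Trp53inp1 at 26.8 and 18.7 FPKM (0.50).

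Among 13 p53 and stress targets, all counted, 3 were higher by the rule and none was lower. Over all counted genes 10.2% were higher and 8.28% lower, and shares of so few targets are imprecise. The rest of the 13 lay between log2 ratios of -0.84 and 0.76. Gdf15, a secreted stress cytokine of the TGF-beta superfamily (chr8:70629393-70632456, minus strand), stood at 28.8 FPKM in d/d and 0.246 FPKM in f/f, a log2 ratio of 4.58 that 43 of the 16263 genes reached. At the estimated depth and for its longest annotated transcript of 1545 nt, the f/f value stands for about 6 fragments and the d/d value for about 832, so Gdf15 was close to undetected in f/f. It entered the count through d/d alone. Gadd45g, a small stress sensor that acts on MAP kinase signalling and the cell cycle (chr13:51846678-51848468, plus strand), stood at 176 FPKM in d/d and 50.4 FPKM in f/f, a log2 ratio of 1.79. Its relatives did not follow: Gadd45a stood at 88.8 FPKM in d/d and 103 FPKM in f/f (-0.21), and Gadd45b at 11 and 13.2 FPKM (-0.24). In f/f Gadd45a was thus the most abundant of the family, and in d/d Gadd45g was. Gadd45gip1, whose product binds Gadd45 proteins and is known as a part of the mitochondrial ribosome, stood at 36.2 FPKM in d/d and 29.0 FPKM in f/f (0.31). Its value is uncertain, since annotated exons on both strands overlap there and the strandedness of the libraries is not given.

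Perp, a p53 target that encodes a membrane protein of desmosomes in epithelia (chr10:18845020-18857073, plus strand), stood at 60.8 FPKM in d/d and 18.2 FPKM in f/f, a log2 ratio of 1.69. It was higher beside the epithelial markers given above. The sestrins, which restrain mTORC1 and oxidative stress, were level or below in d/d: Sesn1 stood at 18.4 FPKM in d/d and 33.9 FPKM in f/f (-0.84), Sesn3 at 18 and 23.7 FPKM (-0.37), and Sesn2 at 6.74 and 6.37 FPKM (0.07). No sestrin passed the rule. Among well-known p53 targets, Aen, a nuclease that takes part in apoptosis, stood at 44.7 FPKM in d/d and 26.0 FPKM in f/f (0.76), and Ccng1, cyclin G1, at 59.7 and 38.9 FPKM (0.61). Zmat3, an RNA-binding protein, stood at 10.5 FPKM in d/d and 7.31 FPKM in f/f (0.47), and Phlda3, an inhibitor of AKT, at 92.3 and 80.7 FPKM (0.19). These 4 targets all had ratios above 0 that fell short of the rule.

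To show what the promoters of such genes look like, windows of 300 bases, 250 before and 50 after the annotated start, were taken from RefSeq on GRCm38.p6; 52 of the 62 members had at least one, 69 windows in all. A match to the p53 half-site consensus on either strand lay in 11 of the 69 member windows (15.9%), and in 2745 of 32851 windows of all genes (8.36%). The matches belonged to 10 members, Aen, Bax, Birc2, Birc5, Bmf, Ccng1, Gadd45a, Mdm2, Sesn1 and Trp53. Of these members 5 had a log2 ratio above 0 and 5 below, between -0.84 for Sesn1 and 0.99 for Bmf, and none passed the 2-fold rule. A match to the NF-kB consensus lay in 11.6% of member windows and 8.46% of all windows, the letters TATAAA in 8.70% and 13.6%, and CCAAT in 42.0% and 37.4%, each on both strands. Motifs were searched separately, so a base could count for more than one. Many working p53 elements lie outside such short windows, and a match is a run of letters, not a site. Mdm2, Ccng1 and Bax are shown as textbook p53 targets with 1 match each, in capitals, at -186, -185 and -201 from the start. Capitals mark p53 half-site matches alone, and the CCAAT matches in the Mdm2 and Ccng1 windows stay in lower case. Gdf15 and Bcl2l15 are shown for having the highest log2 ratios of the members. The windows printed for these 2 genes hold no match to any of these motifs, while the other Gdf15 window holds CCAAT.
Mdm2, chr10:117710709-117711008, minus strand: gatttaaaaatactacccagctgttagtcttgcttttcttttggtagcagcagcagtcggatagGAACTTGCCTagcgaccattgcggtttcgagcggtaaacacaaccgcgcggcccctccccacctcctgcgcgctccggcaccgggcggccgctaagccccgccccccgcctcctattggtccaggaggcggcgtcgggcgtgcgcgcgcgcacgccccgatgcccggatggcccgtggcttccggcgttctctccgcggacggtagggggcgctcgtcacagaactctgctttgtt
Ccng1, chr11:40755237-40755536, minus strand: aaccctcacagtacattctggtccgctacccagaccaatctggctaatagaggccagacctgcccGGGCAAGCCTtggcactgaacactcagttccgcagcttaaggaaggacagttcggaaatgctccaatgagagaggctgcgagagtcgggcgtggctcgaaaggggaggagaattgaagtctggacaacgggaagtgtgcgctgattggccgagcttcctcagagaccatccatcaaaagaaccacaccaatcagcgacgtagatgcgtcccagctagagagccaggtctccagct
Bax, chr7:45466849-45467148, minus strand: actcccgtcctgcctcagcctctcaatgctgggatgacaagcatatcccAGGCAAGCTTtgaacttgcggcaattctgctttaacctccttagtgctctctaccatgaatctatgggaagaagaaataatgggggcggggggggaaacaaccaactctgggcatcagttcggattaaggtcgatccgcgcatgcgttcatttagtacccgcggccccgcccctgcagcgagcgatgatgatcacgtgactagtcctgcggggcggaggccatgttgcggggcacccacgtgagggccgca
Gdf15, chr8:70632407-70632706, minus strand: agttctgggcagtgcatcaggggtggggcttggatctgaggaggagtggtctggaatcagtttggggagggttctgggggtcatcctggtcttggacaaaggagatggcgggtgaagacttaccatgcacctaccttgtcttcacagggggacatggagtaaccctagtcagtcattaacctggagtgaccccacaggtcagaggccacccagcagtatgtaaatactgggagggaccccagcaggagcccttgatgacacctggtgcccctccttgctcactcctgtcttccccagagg
Bcl2l15, chr3:103832446-103832745, plus strand: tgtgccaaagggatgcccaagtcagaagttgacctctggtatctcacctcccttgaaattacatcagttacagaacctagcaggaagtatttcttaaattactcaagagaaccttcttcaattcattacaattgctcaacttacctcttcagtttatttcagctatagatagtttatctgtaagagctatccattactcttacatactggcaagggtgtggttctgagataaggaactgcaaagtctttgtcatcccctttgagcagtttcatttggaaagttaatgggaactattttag
The Bcl2l15 window is the poorest of these in G and C, at 38.3% of its bases, against 64.7% for Mdm2 and 57% for Gdf15.

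Other p53 targets outside the symbol rule showed a similar spread. Of 30 listed genes 29 were counted, 5 were higher by the rule and 1 was lower, with a median log2 ratio of 0.19. For all counted genes the shares were 10.2% higher and 8.28% lower, with a median of -0.01. Ptprv, a p53-induced phosphatase, stood at 12.5 FPKM in d/d and 0.314 FPKM in f/f. Cdkn1a, the cyclin-dependent kinase inhibitor p21 and the best-known arrest target of p53, stood at 74.7 FPKM in d/d and 14.9 FPKM in f/f, 5.01-fold higher in d/d. Ddit4, an inhibitor of mTORC1, stood at 146 FPKM in d/d and 37.1 FPKM in f/f, and the sulfatase Sulf2 at 146 and 54.0 FPKM. The lower gene was Dram1, a lysosomal protein linked to autophagy, at 7.14 FPKM in d/d and 20.5 FPKM in f/f (named after its values were seen). Ratios of the list lay on both sides of 0, with 17 above and 12 below.

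Upstream of p53, the list of DNA damage signalling and p53 control genes had 2 higher and 2 lower of 21 counted. Its median log2 ratio was 0.01. Among all counted genes 10.2% were higher and 8.28% lower. The kinases Atm and Atr, which signal DNA breaks and stalled replication, stood at 6.22 and 5.83 FPKM in d/d, against 6.19 and 6.31 FPKM in f/f (named after their values were seen). Cdkn2a, whose p19Arf product restrains Mdm2, stood at 3.47 FPKM in d/d and 0.776 FPKM in f/f. Rpl11, a ribosomal protein that can bind Mdm2, stood at 58.8 FPKM in d/d and 23.7 FPKM in f/f; ribosomal protein genes have many processed copies, which makes the value uncertain. Lower were Mre11a of the break-sensing complex, at 11.4 FPKM in d/d and 27.2 FPKM in f/f, and the histone gene H2ax, at 72.1 and 155 FPKM.

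The 7 BH3-only genes all fell short of the 2-fold rule, and 6 of 7 had ratios above 0, with a summed level of 156 FPKM in d/d and 120.02 FPKM in f/f. Bmf, which is tied to the cytoskeleton in healthy cells, came closest to the rule at 27.7 FPKM in d/d and 13.4 FPKM in f/f, a log2 ratio of 0.99. Bcl2l11, known as Bim and able to bind every pro-survival relative, stood at 14.5 FPKM in d/d and 8.83 FPKM in f/f (0.66). The p53 targets of this class did not stand out: Pmaip1, known as Noxa, stood at 5.64 FPKM in d/d and 3.56 FPKM in f/f (0.54), and Bbc3, known as Puma, at 8.12 and 8.31 FPKM (-0.03). Bik stood at 18.1 FPKM in d/d and 13.5 FPKM in f/f (0.40), and Bid, which links death receptors to mitochondria, at 10.6 and 8.61 FPKM (0.28). Bad, which is controlled by growth factor signals, was the most abundant at 70.9 FPKM in d/d and 63.8 FPKM in f/f (0.15). Part of the Bad exons, 20.5% of their bases, overlap Gpr137 on the opposite strand, and Bid and Bcl2l13 overlap each other at their ends in the same way.

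Of 9 pro-survival members 7 were counted, 2 were higher by the rule and none was lower. Over all counted genes 10.2% were higher and 8.28% lower. Mcl1, a short-lived guardian of the mitochondrion, supplied 46.2% of their summed level in d/d and 49.9% in f/f, at 112 FPKM in d/d and 97.6 FPKM in f/f (0.19). Bcl2l1, known as Bcl-x, stood at 45.0 FPKM in d/d and 43.2 FPKM in f/f (0.06), and Bcl2l2, known as Bcl-w, at 32.1 and 28.0 FPKM (0.19). Bcl2, the founder of the family, was the exception, at 3.51 FPKM in d/d and 7.12 FPKM in f/f (-0.85). With Bax above and Bcl2 below, the level of Bax relative to Bcl2 was 50.4 in d/d and 17.6 in f/f, yet Bcl2 made up no more than 3.64% of the pro-survival sum in either library. The oocyte member Bcl2l10 and the copy Bcl2a1c were listed at 0 in both.

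The Bcl2a1 genes, known from blood cells and mast cells as targets of NF-kB, carried the higher calls of this class. Bcl2a1b (chr9:89199209-89207827, plus strand) stood at 34.1 FPKM in d/d and 13.0 FPKM in f/f (1.32), and Bcl2a1d (chr9:88723285-88731914, minus strand) at 9.96 and 4.23 FPKM (1.07). Bcl2a1a (chr9:88956900-88962419, plus strand) stood at 5.16 FPKM in d/d and 2.51 FPKM in f/f (0.81), short of the rule. Their summed level was 49.2 FPKM in d/d and 19.8 FPKM in f/f, 2.49-fold higher in d/d. These genes are near copies of one another, as their coding sequences show, so a fragment can often be placed on more than one of them. Only 12 of 519 coding bases differ among the 3 genes; Bcl2a1a and Bcl2a1b are 97.9% identical, Bcl2a1a and Bcl2a1d 98.7%, and Bcl2a1b and Bcl2a1d 98.8%. The first 120 coding bases from GENCODE M21 hold 7 of the 12 positions that differ, given in capitals.
Bcl2a1a, coding bases 1 to 120: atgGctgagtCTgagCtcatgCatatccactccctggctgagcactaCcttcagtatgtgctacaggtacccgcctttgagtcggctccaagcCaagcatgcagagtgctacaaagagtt
Bcl2a1b, coding bases 1 to 120: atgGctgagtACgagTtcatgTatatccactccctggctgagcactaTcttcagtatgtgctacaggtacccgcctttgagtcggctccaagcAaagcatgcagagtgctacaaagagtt
Bcl2a1d, coding bases 1 to 120: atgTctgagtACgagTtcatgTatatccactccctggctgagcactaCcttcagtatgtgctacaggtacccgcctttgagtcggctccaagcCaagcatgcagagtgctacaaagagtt
Single values of the copies are therefore uncertain, and their sum is the safer measure. In addition, 49.1% of the Bcl2a1b exon bases overlap the gene model Gm29094 on the same strand, which was listed at 0 in both libraries. The macrophage, neutrophil, and B and plasma cell marker sums were higher in the same library, and the NK and T cell sum was lower. That last list was split, with 6 of 9 counted markers lower and the T cell genes Cd3e, Cd3g and Cd4 higher. Retnlg made up most of the neutrophil sum, at 150 FPKM in d/d and 104 FPKM in f/f (named after its values were seen). The part of these cells in the Bcl2a1 values was not tested.

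Among the effectors the sum hardly differed while the make-up did. Bax, Bak1 and Bok summed to 277 FPKM in d/d and 266 FPKM in f/f. Bok, a family member highly expressed in reproductive tissues whose activity does not depend on BH3-only proteins (chr1:93685660-93695764, plus strand), stood at 29.5 FPKM in d/d and 94.2 FPKM in f/f, a log2 ratio of -1.64; 484 of the 16263 genes lay as low or lower. It was 3.19-fold lower in d/d and supplied 10.7% of the effector sum in d/d against 35.5% in f/f. Bax stood at 177 FPKM in d/d and 125 FPKM in f/f (0.49), and Bak1 at 70.7 and 46.1 FPKM (0.61), both short of the rule. Bax was thus 5.99 times the level of Bok in d/d and 1.33 times in f/f. Bok was lower in the library where 6 of 10 stromal and 4 of 8 endothelial markers were also lower. So were 2 of 8 smooth muscle, 4 of 7 gland and 6 of 9 counted NK and T cell markers, with 3 of the last list higher. The part of any list in the Bok value was not tested.

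**Figure D3:**
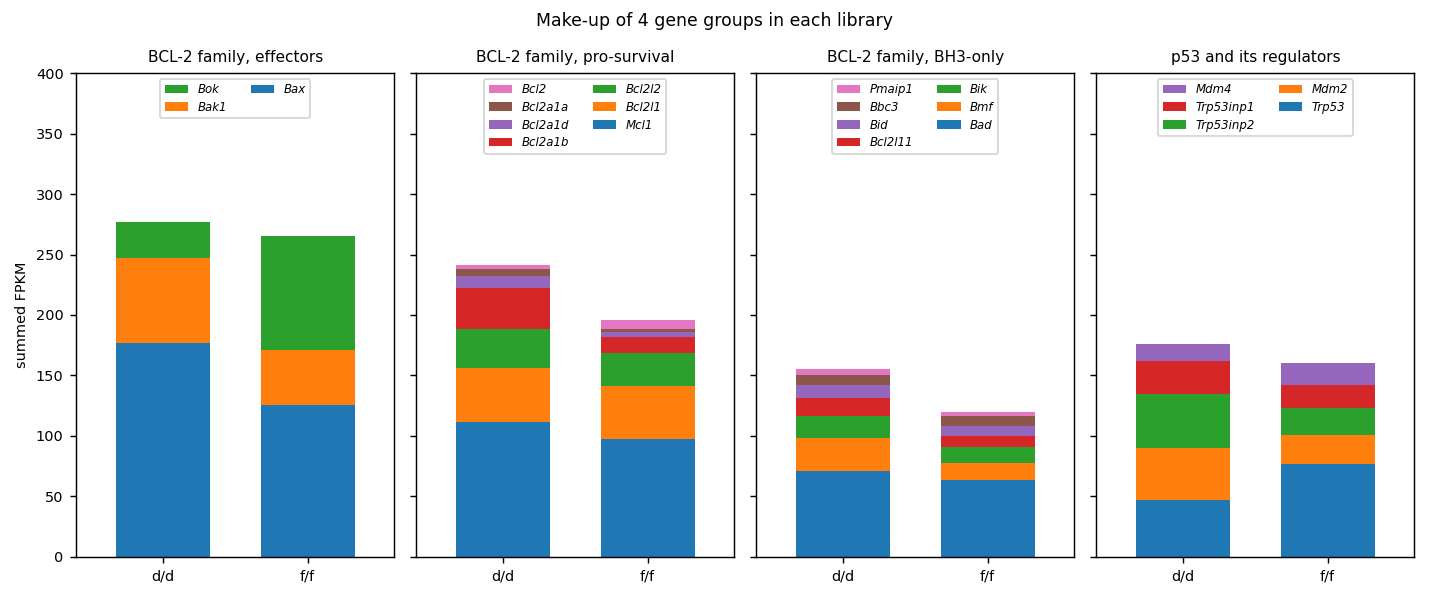
Summed FPKM of 3 BCL-2 classes and of p53 with its regulators in the d/d library (left bar) and the f/f library (right bar), stacked by gene. The Bok segment is 29.5 FPKM in d/d and 94.2 FPKM in f/f while the effector total is alike, and the Trp53 segment is 46.7 and 76.6 FPKM beside Mdm2 at 43.6 and 24.2 FPKM.

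The less studied BCL-2 relatives held the member with the highest log2 ratio. Bcl2l15, known as Bfk and described in the mouse gut (chr3:103832601-103854618, plus strand), stood at 81.6 FPKM in d/d and 0.135 FPKM in f/f, a log2 ratio of 6.19 that 11 of the 16263 genes reached. At its longest transcript of 1902 nt this is about 3034 fragments in d/d and about 4 in f/f, so it too entered the count through d/d alone. In d/d it made up 61.1% of the summed level of its class, against 0.305% in f/f, and its level there exceeded that of Bak1 or Bad. Gm43064, a gene model that covers 21.0% of the Bcl2l15 exon bases on the same strand, was listed at 0 in d/d and at 0.240 FPKM in f/f. Bcl2l14, known as Bcl-G (chr6:134396318-134438736, plus strand), stood at 6.14 FPKM in d/d and 2.06 FPKM in f/f (1.22). Bcl2l13, a mitophagy receptor, stood at 25.1 FPKM in d/d and 17.2 FPKM in f/f (0.52), and Bcl2l12, a nuclear and cytoplasmic relative, at 20.8 and 25 FPKM (-0.25).

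Casp6 and the 3 initiator caspases fell short of the 2-fold rule. Casp6, which cleaves nuclear lamins, stood at 37.4 FPKM in d/d and 21.2 FPKM in f/f (0.79). Of the initiators, Casp8 of the death receptors stood at 40.4 FPKM in d/d and 29.7 FPKM in f/f (0.43), Casp9 of the apoptosome stood at 8.05 and 10.3 FPKM (-0.32), and Casp2 at 15.0 and 17.8 FPKM (-0.24). Apaf1, the scaffold of the apoptosome, stood at 6.20 FPKM in d/d and 6.80 FPKM in f/f (-0.12). Cflar, the inhibitor of Casp8 and its neighbour on chromosome 1, stood at 36 FPKM in d/d and 34.9 FPKM in f/f (0.04), so Casp8 relative to Cflar was 1.12 in d/d and 0.851 in f/f. Casp8ap2, which binds Casp8 and is better known for processing histone RNAs, stood at 25 FPKM in d/d and 12.2 FPKM in f/f, a log2 ratio of 0.98 just short of the rule.

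The inflammatory caspases sit side by side on chromosome 9 and did not move as a block. Casp12, an inflammatory-type caspase bound to the endoplasmic reticulum in rodents (chr9:5345430-5373032, plus strand), stood at 13.7 FPKM in d/d and 37.6 FPKM in f/f, a log2 ratio of -1.39. Casp4, known in mice as caspase-11 and a sensor of bacterial lipopolysaccharide, stood at 15.3 FPKM in d/d and 29.4 FPKM in f/f (-0.90), and lies 8.65 kb from Casp12. Casp1, which matures Il1b and Il18 and lies 1.56 kb from Casp4, stood at 18 FPKM in d/d and 14.5 FPKM in f/f (0.30). In f/f Casp12 was the most abundant of the 3 and Casp1 the least, and in d/d the order was reversed. Casp14 of the skin was listed at 0.120 FPKM in d/d and 0 in f/f, and Casp16 at 0.0365 and 0.0425 FPKM, both below the level counted.

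The 7 genes of the IAP family and its antagonist held no member past the rule, and 6 were counted. Birc3, known as cIAP2 and an NF-kB target, stood at 28.9 FPKM in d/d and 14.2 FPKM in f/f (0.98). Its neighbour on chromosome 9, Birc2, known as cIAP1, stood at 14.7 FPKM in d/d and 15.0 FPKM in f/f (-0.03), so Birc3 relative to Birc2 was 1.96 in d/d and 0.942 in f/f. Xiap, the direct caspase inhibitor, stood at 18 FPKM in d/d and 23.5 FPKM in f/f (-0.37), and its antagonist Diablo at 42.4 and 42.7 FPKM (-0.01). The giant ubiquitin ligase Birc6 stood at 33.2 FPKM in d/d and 33.1 FPKM in f/f (0.00), and Birc7 was listed at 0 in both. Birc5, or survivin, which acts in mitosis as a part of the chromosomal passenger complex, stood at 57 FPKM in d/d and 90.2 FPKM in f/f (-0.65). Its partners in that complex lay on the same side, with Aurkb at 23.1 FPKM in d/d and 42.4 FPKM in f/f, Cdca8 at 21.1 and 36.2 FPKM, and Incenp at 22.5 and 28.4 FPKM (named after their values were seen). Of 20 mitotic genes 19 had ratios below 0, with a median of -0.64 close to the ratio of Birc5. By the rule 3 were lower, where 8.28% of all counted genes were lower. These were Top2a at 46.1 FPKM in d/d and 110 FPKM in f/f, Kif20a at 16.7 and 35.7 FPKM, and Cdc20 at 29.0 and 59.7 FPKM.

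Around these members, the pathway lists showed both directions. They cover other p53 targets, DNA damage signalling, cell death, the integrated stress response and mitosis. The 20 mitotic genes held 3 lower and none higher. Over the 7 pathway lists 125 genes outside the symbol rule were counted, of which 12 were higher (9.60%) and 12 lower (9.60%), shares close to the 10.2% and 8.28% of all genes. In the list of death receptors, ligands and adaptors, 2 of 15 were higher and 1 was lower. Tnfsf10, the death ligand TRAIL, stood at 41.0 FPKM in d/d and 13.0 FPKM in f/f, and the receptor adaptor Tradd at 48.0 and 21.8 FPKM. Fasl, a death ligand of killer lymphocytes, was the lower gene, at 0.183 FPKM in d/d and 2.17 FPKM in f/f. In the NK and T cell marker list 6 genes were lower, while the T cell genes Cd3e, Cd3g and Cd4 were higher. Cd3g, for example, stood at 33.7 FPKM in d/d and 5.22 FPKM in f/f (these T cell genes were named after their values were seen). The part of either cell type in the Fasl value was not tested. Of 15 mitochondrial and nuclear death factors none was higher and 2 were lower, the mitophagy receptor Bnip3 at 6.65 FPKM in d/d and 14.9 FPKM in f/f, and the BH3-only gene Hrk, listed at 0 in d/d and at 1.37 FPKM in f/f.

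Pyroptosis and necroptosis, inflammatory forms of cell death, had 3 higher and 2 lower of 12 counted genes. The shares over all counted genes were 10.2% and 8.28%. Higher were Aim2, a sensor of cytosolic DNA, at 24.3 FPKM in d/d and 4.78 FPKM in f/f, and the inflammasome adaptor Pycard at 107 and 36.7 FPKM. Nlrc4, a sensor of bacterial proteins, was the other, at 2.30 FPKM in d/d and 0.470 FPKM in f/f (named after its values were seen). Lower were the pore-forming Gsdme at 0.765 FPKM in d/d and 5.53 FPKM in f/f, and the necroptosis kinase Ripk3 at 5.02 and 19.1 FPKM. Gsdmd, the pore former cut by Casp1 and Casp4, stood at 22 FPKM in d/d and 23.1 FPKM in f/f (named after its values were seen). Of 8 macrophage markers 4 were higher in d/d, as given above, and their part in these values was not tested.

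Gdf15 and Sesn2 are also targets of the integrated stress response, in which Atf4 is the main transcription factor. Without those 2 members, none of its 15 counted genes was higher and 1 was lower, with a median log2 ratio of -0.26. Over all counted genes 10.2% were higher and 8.28% lower. The lower gene was Phgdh, the first enzyme of serine synthesis, at 2.75 FPKM in d/d and 15.0 FPKM in f/f. Atf4 stood at 127 FPKM in d/d and 134 FPKM in f/f, and its partner Ddit3, known as CHOP, at 19.9 and 18.8 FPKM (both named after their values were seen). No other gene of that list was higher by the rule, and the part of this response in the Gdf15 level was not tested.

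**Figure D4:**
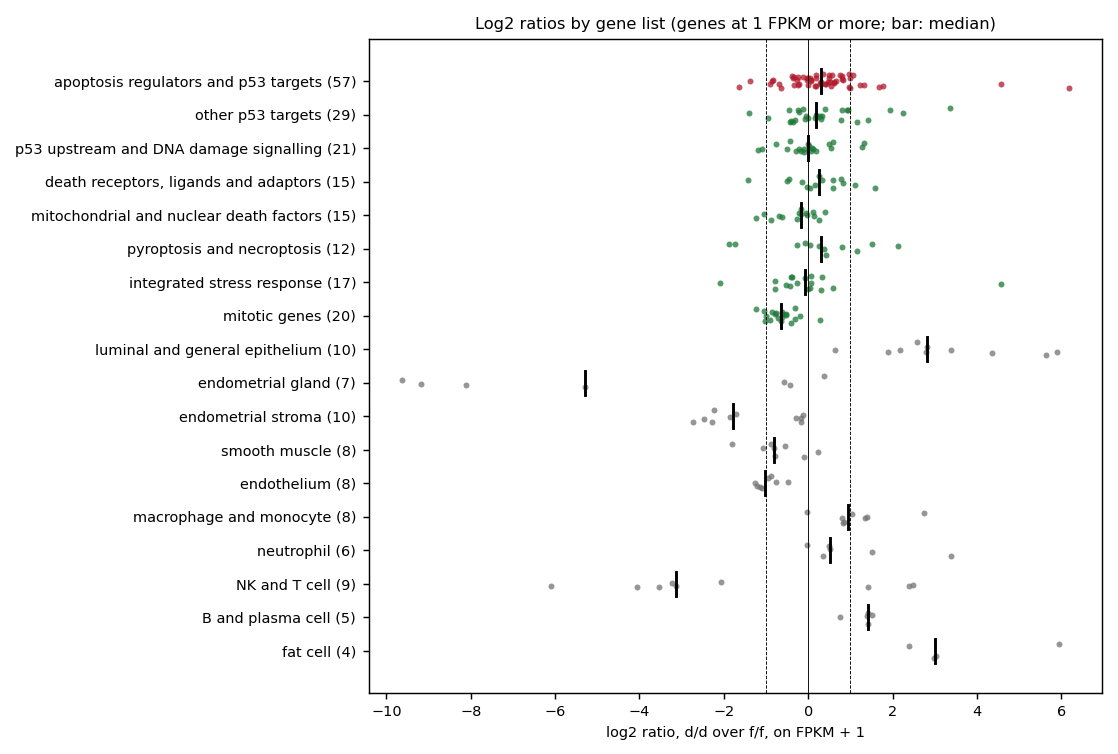
Log2 ratio (d/d over f/f, FPKM + 1) for each gene counted, by list, with the number of genes in brackets and a black bar at the median; red marks the members, green the pathway lists and grey the cell type markers. The members centre at 0.30 and the mitotic genes at -0.64, while epithelial and stromal markers centre at 2.81 and -1.78.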

How the data were processed

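RNA sequencing of whole uterus gave 1 library per genotype. Per the labels' protocols, total RNA came from a TRIzol extraction and libraries from a TruSeq kit. The authors deposited FPKM values, 1 per gene row; the submitters' processing notes name HISAT2 2.2.1, Cufflinks 2.2.1 and build mm10, and the annotation release is not given in the sources used here. The files hold no read counts. FPKM depends on how fragments are shared between overlapping or near-identical genes.

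Rows sharing a symbol were summed (55483 rows, 55363 genes). Log2 ratios used a pseudocount of 1 FPKM, which understates differences of low genes, and a gene was counted where either library reached 1 FPKM. With 1 library per genotype there is no test. The member rule used gene symbols alone, so no measured value entered it. Earlier results of these data were nonetheless known when members and gene lists were chosen. Casp16 had no role. Some members are counted in the totals but not reported here.

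Depth was estimated from genes annotated with a single transcript, 2000 nt or longer. Their FPKM, multiplied by length less 300 nt, came within 0.1 of a whole number of fragments for 83.1% of 969 low values in d/d and 85.0% of 872 in f/f. Fragment numbers are therefore approximate. Positions and exon overlaps are from GENCODE M21 on GRCm38, and promoters from RefSeq. Ratio calls and the depth estimate were tested on simulated data (Python 3.11.15, pandas 2.3.3). Genes named were the members, Mettl14 and Cdkn1a. From each pathway list came up to 4 genes with the largest ratios past the rule, or up to 2 of the most abundant. Other pathway genes and neighbours are marked as named after their values were seen. Marker genes named singly were also named after their values were seen.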

Additional observations from a re-analysis of the deposited data

How the results depend on the processing

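Bcl2l15, Gdf15, Gadd45g, Perp and Bok passed the 2-fold rule in the same direction, and Casp12 and Bcl2a1b did too, under each of the 8 other settings that kept the rule. Among those settings, a filter of 5 FPKM, no filter, and the highest row of each symbol could not change these calls. Each of these genes had 1 row and stood above 5 FPKM in at least 1 library. Bcl2a1d fell short at a pseudocount of 5 FPKM (0.70) and after upper-quartile scaling (1.00, just under the rule), and Bcl2l14 at that pseudocount (0.66). A pseudocount of 0.1 FPKM gave 11 higher members by adding Birc3 (1.02), Bmf (1.04), Casp8ap2 (1.03) and Bcl2a1a (1.01), gave Bcl2 as lower (-1.002), and spread the calls over 8 roles rather than 5; 12.5% of all genes were then higher. Centring on the median of all genes added Bmf (1.00). No member past the rule changed sign; of the others, Bcl2l1, Birc6, Cflar and Sesn2 turned below 0 by upper-quartile scaling, Birc6 also by scaling to equal sums, and Diablo turned above 0 by centring, all within 0.1 of 0. The median of the members was 0.19 with no filter, where unexpressed members enter. Upper-quartile scaling moved the median of all genes to -0.09 and that of the members to 0.22. A pseudocount of 5 FPKM left 5 lower genes in the pathway lists.

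Counts depend on the fold chosen. A 1.5-fold rule gave 18 higher and 7 lower members in 10 roles, and 23 higher and 29 lower pathway genes. The higher members were then 31.6% of those counted, against 18.8% of all genes. The lower members were 12.3%, against 17.8% of all genes. A 3-fold rule gave 4 higher and 1 lower member in 3 roles, and 5 higher and 3 lower pathway genes. These members were 7.02% and 1.75% of those counted, against 4.62% and 3.27% of all genes. No paired analysis was possible because each genotype has 1 library, and for the same reason no library could be left out. Genes listed below 1 FPKM rest on few fragments, and differences there were not detectable with any precision at this depth.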

Other observations

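The genes beside Gdf15, Gadd45g, Perp, Bcl2l15, Bok and the caspases of chromosome 9 did not share 1 pattern. Beside Perp, Arfgef3, 101 kb away, stood at 2.54 FPKM in d/d and 0.336 FPKM in f/f (1.41). On the other side of Perp, Tnfaip3, 144 kb away, stood at 5.46 FPKM in d/d and 2.65 FPKM in f/f (0.82). Gm4922 and Olig3, also near Perp, were listed at 0 in both libraries. Gdf15 lies on chromosome 8 with Pgpep1, a peptidase gene, 14 kb away, and Pgpep1 stood at 138 FPKM in d/d and 20.4 FPKM in f/f, a log2 ratio of 2.70. On its other side Lrrc25, 7.91 kb away, stood at 11.8 FPKM in d/d and 6.14 FPKM in f/f (0.84). The next genes on each side were level, with Ssbp4 at 149 FPKM in d/d and 124 FPKM in f/f and Lsm4 at 140 and 141 FPKM. Gadd45g has Sema4d, a semaphorin gene, 52.9 kb away at 36.5 FPKM in d/d and 10.8 FPKM in f/f (1.67). Secisbp2, 163 kb away on the same side, stood at 7.89 FPKM in d/d and 8.12 FPKM in f/f (-0.04), and Syk, a kinase gene of immune cells 735 kb away on the other side, at 12 and 5.85 FPKM (0.93).

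Beside Bcl2l15, Ap4b1 stood at 10.2 FPKM in d/d and 9.74 FPKM in f/f (0.06), and Ptpn22, a phosphatase gene of lymphocytes 5.18 kb away, stood at 8.46 and 4.27 FPKM (0.84). Rsbn1, 59.5 kb away, stood at 9.18 FPKM in d/d and 5.05 FPKM in f/f (0.75). The nearest genes on each side of Bok were level, with Stk25 at 61.4 FPKM in d/d and 65 FPKM in f/f (-0.08) and Thap4 at 31.8 and 36 FPKM (-0.17). Past the caspase cluster on chromosome 9, Pdgfd, a growth factor gene 796 kb from Casp12, stood at 6.67 FPKM in d/d and 16.6 FPKM in f/f (-1.19), and Gria4 on the far side of Casp1 at 2.73 and 9.75 FPKM (-1.53). These neighbours were named after their values were seen.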
